A study of Mus musculus with 5 samples.

Results

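The IL-17 and IL-23 pathway was followed through 8 genes, chosen by name from the feature lists: the cytokines Il17a, Il17f and Il22, the IL-23 subunit Il23a and its receptor chain Il23r, the IL-17 receptor chains Il17ra and Il17rc, and Nfkbiz, which encodes IκBζ, a nuclear protein induced downstream of the IL-17 receptor. Each of the 8 symbols had 1 row among the 32285 features of the T cell libraries and 1 row among the 54987 features of the whole-tumor libraries. The samples were 4T1 tumors, a mouse triple-negative mammary carcinoma line carrying Thy1.1, grown in the mammary fat pad of 12-week-old BALB/c mice. The treated mice received doxorubicin (DOX) intravenously at 5 mg/kg in 3 treatments given 3 days apart, and their tumors were classed as sensitive or resistant to DOX; the control tumors received saline. There were 5 droplet single-cell libraries and 1 library per group: T cells from sensitive tumors, T cells from resistant tumors, and whole tumor from sensitive, resistant and control mice. The T cell libraries were made by bead depletion of other leukocytes and of Thy1.1 cancer cells, and each pooled the cells of 3 tumors. With 1 library per group no test between conditions was possible, so every interval below is a 95% interval that covers counting error only and holds nothing of the difference between mice. The comparison asks in which cells the IL-17A of DOX-sensitive tumors arises and which cells carry its receptor.

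IL-17A and IL-17F are secreted as homodimers or as a heterodimer by subsets of T cells, among them γδ T cells that are programmed in the fetal thymus, carry the Vγ6 chain (Tcrg-V6) with Vδ4 (Trdv4) and settle in barrier tissues and tumors. IL-23, made of the Il23a and Il12b chains, sustains these cells through Il23r and Il12rb1. IL-17A and IL-17F bind a receptor of Il17ra and Il17rc, which signals through Act1 (Traf3ip2) to NF-κB and C/EBP factors, induces Nfkbiz and stabilises the mRNAs of neutrophil chemokines and growth factors.

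Il17a (ENSMUSG00000025929) lies at chr1:20730905-20734496 on the plus strand and Il17f (ENSMUSG00000041872) at chr1:20777146-20790617 on the minus strand of GRCm38, the build to which the reads had been aligned. Il22 (ENSMUSG00000074695) lies at chr10:118204942-118210047 on the plus strand and Il23a (ENSMUSG00000025383) at chr10:128296139-128298752 on the minus strand. The 3 receptor genes are on chromosome 6: Il23r (ENSMUSG00000049093) at chr6:67422932-67491855 on the minus strand, Il17rc (ENSMUSG00000030281) at chr6:113471427-113483140 on the plus strand and Il17ra (ENSMUSG00000002897) at chr6:120463247-120487559 on the plus strand. Nfkbiz (ENSMUSG00000035356) lies at chr16:55811375-55838899 on the minus strand.

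The 3 genes detected mainly in the cells with a γδ receptor chain (Il17a, Il17f and Il23r) are shown here by the 250 bases upstream of their RefSeq start (GRCm38.p6), so that the promoters of the neighbouring paralogs can be set beside that of the receptor gene. The sequences are written 5′ to 3′ on the strand of the gene, and capitals mark TATAAA, the letters of a TATA box, or TTTATA where a match lies on the opposite strand.
Il17a, chr1:20730655-20730904, plus strand: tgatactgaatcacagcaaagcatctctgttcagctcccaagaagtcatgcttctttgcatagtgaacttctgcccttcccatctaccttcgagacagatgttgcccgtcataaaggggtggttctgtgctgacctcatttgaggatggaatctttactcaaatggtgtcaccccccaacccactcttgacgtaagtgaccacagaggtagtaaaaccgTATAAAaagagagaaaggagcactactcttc
Il17f, chr1:20784271-20784520, minus strand: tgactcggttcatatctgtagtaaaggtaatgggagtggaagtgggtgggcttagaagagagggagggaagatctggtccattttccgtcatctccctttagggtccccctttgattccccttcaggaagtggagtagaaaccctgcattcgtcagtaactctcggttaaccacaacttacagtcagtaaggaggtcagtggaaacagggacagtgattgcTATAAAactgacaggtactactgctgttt
Il23r, chr6:67491856-67492105, minus strand: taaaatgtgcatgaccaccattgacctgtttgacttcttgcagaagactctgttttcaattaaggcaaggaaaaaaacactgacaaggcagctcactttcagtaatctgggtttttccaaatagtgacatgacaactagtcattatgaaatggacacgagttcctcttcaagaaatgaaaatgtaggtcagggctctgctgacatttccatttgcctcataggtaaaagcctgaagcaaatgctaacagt
The window of Il17a held 1 match, 31 bases upstream of the start, and that of Il17f held 1 match, 29 bases upstream. The window of Il23r held 0 matches to these letters, as did that of Il17rc, and that of Il22 held 1 match, 170 bases upstream. TATAAA on either strand occurred in 4063 of 32851 RefSeq promoter windows of this length (12.4%), and a match describes the window only. In all, 5 of the 8 genes had an entry in the set of windows used here, and Il23a, Il17ra and Nfkbiz had none in that set.

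The T cell libraries held 6116 barcodes and 35908799 unique molecular identifiers (UMIs) from resistant tumors and 3949 barcodes and 31690845 UMIs from sensitive tumors, of which 3091 and 3448 cells were kept. The whole-tumor libraries were shallow, with 537293 to 1731940 UMIs and 263 to 488 kept cells. Mitochondrial RNA differed between the T cell libraries. Among barcodes with 500 or more genes, 1618 of the resistant library and 123 of the sensitive library exceeded the limit of 10%. The medians of the kept cells were 4.95% and 2.39%. Cells were placed in lineage gates by lists of 10 marker genes; T cells made up 57.9% of the resistant and 55.2% of the sensitive T cell library, so both libraries also held fibroblasts, neutrophils, macrophages and cancer cells that the depletion had left. The marker genes kept aside to check the gates were highest in their own gate for 5 of 5 in γδ T cells, 3 of 4 in CD4, 3 of 4 in CD8, 5 of 5 in neutrophils, 3 of 5 in macrophages or monocytes, 5 of 5 in fibroblasts and 4 of 4 in cancer cells. The libraries shared 45 barcodes over all pairs, 29 of them in kept cells, and none of these carried Il17a. The labels of the whole-tumor libraries disagree among themselves: the source lines of the resistant and of the saline control library both name sensitive tumors. They are called resistant and control here after their titles and, for the resistant one, its sensitivity field, and every whole-tumor comparison rests on this reading. By the gates used here, T cells were 0.743% of the library called sensitive, 4.94% of the resistant and 10.0% of the control library. The paper reports its largest T cell share for the sensitive whole tumor, and which library is which was not settled.

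Il17a was found in few cells, most of them with several UMIs. In the T cell library of sensitive tumors 29 kept cells held 870 Il17a UMIs, from 1 to 163 per cell with a median of 14, and 17 of them held 10 or more while 9 held 1 or 2. In the T cell library of resistant tumors 3 kept cells held 202 UMIs, which were 180, 17 and 5 per cell. The most abundant cell therefore held 18.7% of the sensitive and 89.1% of the resistant Il17a UMIs.

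Il17a-positive cells made up 24 of 1905 T cells (1.26%, Clopper-Pearson 0.809 to 1.87) in the sensitive library and 3 of 1791 (0.168%, 0.0346 to 0.489) in the resistant library. The sensitive share was 7.52 times the resistant share (2.27 to 24.9). Summed over T cells, Il17a reached 79.6 CPM (UMIs per 1000000 UMIs; 74.0 to 85.4) against 19.8 CPM (17.2 to 22.8), a ratio of 4.01 (3.43 to 4.71) that is 29.0 when the highest cell of each library is left out. Of all genes with at least 20 UMIs over both libraries, 6.66% differed by 2-fold or more in either direction over all T cells, with a median ratio of 1.11. The 3 pathway genes that could be compared there were Il17a, Nfkbiz (2.43, 2.20 to 2.69) and Il17ra (1.40, 1.14 to 1.73), and the first 2 lay past 2-fold.

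**Figure D1:**
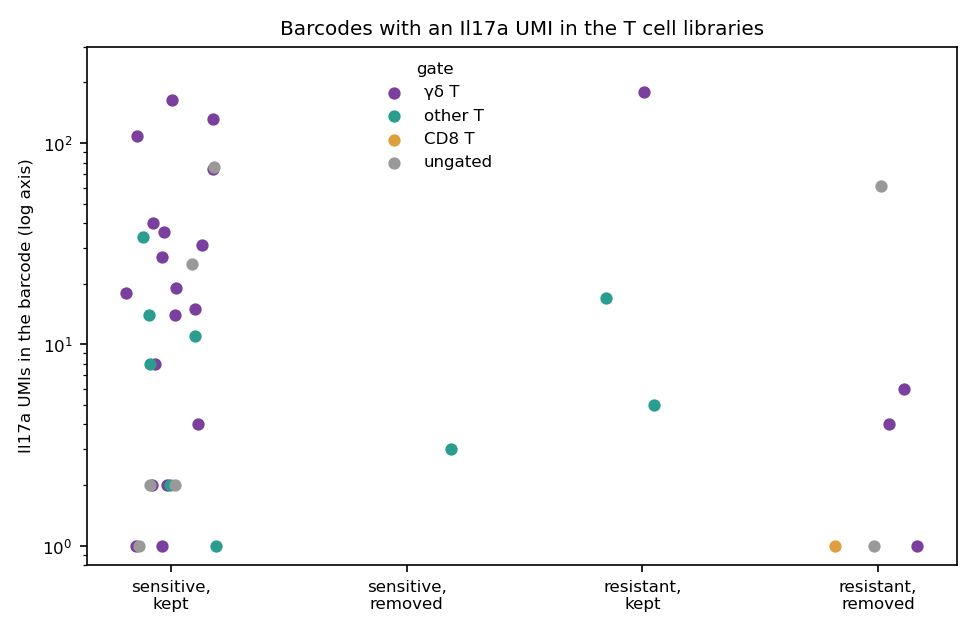
Il17a UMIs (log axis) in each barcode of the T cell libraries with at least 1 Il17a UMI, split into cells kept and barcodes removed by the cell filters; colours give the lineage gate and horizontal scatter within a group has no meaning. The 29 kept sensitive cells spread from 1 to 163 UMIs, the 3 kept resistant cells lie at 180, 17 and 5, and the 6 removed resistant barcodes reach 61.

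The resistant T cell library also held 6 barcodes with Il17a that the cell filters removed, with 61, 6, 4, 1, 1 and 1 UMIs. Of these, 5 had enough genes but exceeded the mitochondrial limit, and 1 had too few genes, with 54.1% mitochondrial RNA. Of the 6, 4 carried Trdc, Trdv4 and Tcrg-V6. Of the 5, 1 with 10.8% mitochondrial RNA was in the CD8 gate, with 1 Il17a and 2 Cd8a UMIs. The sensitive library lost 1 such barcode, a putative doublet with 3 UMIs. Without the mitochondrial limit the share of Il17a-positive T cells was 4.92 times higher in the sensitive library, against 7.52 with it. The part of RNA quality in this difference was not tested.

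The Il17a UMIs lay in cells with γδ receptor chains. Of the 29 sensitive cells, 27 carried Trdv4, 21 Tcrg-V6 and 22 Trdc, the δ constant region, and cells with any of these 3 held 99.1% of the UMIs. All 29 carried a Cd3 transcript, 2 carried Tcrg-V4, 2 carried Cd4, 0 carried Cd8a and 2 carried Cd8b1, at 1 UMI each. The scavenger receptor gene Cd163l1, a marker of IL-17-producing γδ T cells, was found in 27. Of the 3 resistant cells, 2 carried Trdv4, Tcrg-V6 and Cd163l1.

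By lineage gate, the γδ gate held 18 of the 29 sensitive cells and 694 of their UMIs (79.8%). Of the 11 cells outside it, 7 had no UMI of Trdc, which the gate requires, and 4 had one. Of the other cells, 6 with 70 UMIs were T cells outside the γδ, CD4 and CD8 gates and 5 with 106 UMIs were in no gate. The CD8 gate held 0 Il17a UMIs in 1279 sensitive and 1542 resistant cells, which allows up to 0.235% and 0.195% of cells with a UMI. The CD4 gate held 0 in 195 and 51 cells (up to 1.54% and 5.88% of cells with a UMI). These limits cover detected UMIs and not cells that express the gene. No Il17a UMI was counted in neutrophils, macrophages or monocytes, dendritic cells, fibroblasts or cancer cells of either library.

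Within the γδ gate, 18 of 99 sensitive cells (18.2%, 11.1 to 27.2) and 1 of 21 resistant cells (4.76%, 0.120 to 23.8) carried Il17a, and these intervals overlap. Summed over the gate, the sensitive cells reached 1777 CPM and the resistant cells 1952 CPM, a ratio of 0.910 (0.772 to 1.08) in which the resistant value comes from 1 cell. In this gate 17.8% of all genes differed by 2-fold or more. The γδ gate itself made up 5.20% of sensitive T cells but 1.17% of resistant T cells, which differ 4.43-fold (2.78 to 7.07).

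Cells with Trdv4 or Tcrg-V6 were found in both libraries, 134 in the sensitive and 68 in the resistant one. Of these, 27 (20.1%, 13.7 to 27.9) and 2 (2.94%, 0.358 to 10.2) carried Il17a. Gated T cells made up 85 of the 134 and 42 of the 68, and T cells with both chains carried Il17a in 18 of 49 (36.7%, 23.4 to 51.7) and in 2 of 7 (28.6%, 3.67 to 71.0), with intervals that overlap. Among the sensitive γδ gate, 18 of 50 cells with either chain carried Il17a and 0 of 49 cells with neither chain did; in the resistant gate these were 1 of 6 and 0 of 15. The gate therefore held chain-bearing cells in different shares, 50 of 99 against 6 of 21. The cells with these chains were not alike: Cd8a was found in 0 of the 27 sensitive chain-bearing cells with Il17a, in 29 of the 107 without it (27.1%) and in 31 of the 66 resistant cells without it (47.0%).

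Cd163l1 and Nfkbiz were more often detected in the sensitive chain-bearing cells with Il17a than in those without. Il17ra was found in 4 of 27 cells with Il17a (14.8%) and in 16 of 107 without. Both sets include cells that are not gated T cells. Il17ra was found in 20 of all 134 chain-bearing cells but in 6 of the 85 gated T cells, so these shares mix cell types. Cd163l1 was found in 27 of 27 cells with Il17a and in 38 of 107 without (35.5%, 26.5 to 45.4). Nfkbiz was found in 18 of 27 (66.7%, 46.0 to 83.5) and in 36 of 107 (33.6%, 24.8 to 43.4), although the cells with Il17a had the lower median depth, 3644 against 4170 UMIs. Il23r was found in 5 and in 8 of them (18.5% and 7.48%), with intervals that overlap. Cells of 1 library share their source, so these shares describe that library.

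The gene whose level across lineage gates was most like that of Il17a was Cd163l1, with a Pearson r of 0.990 of log2(CPM + 10) over 19 gates of the T cell libraries and 12308 genes. Tcrg-V6 (0.971), Tcrg-V1 (0.966), Blk (0.954), which encodes a Src-family kinase found in these γδ T cells, and Tcrg-C1 (0.926) followed. Likeness across gates is not detection in the same cell: no sensitive cell with Il17a held a Tcrg-V1 UMI. Tcrg-C1 is among the genes that define the γδ gate. The 19 points share 2 libraries and most of them are at 0 for Il17a, so r rests on the γδ and remaining T cell gates.

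Il17f, the paralog next to Il17a, was found in 5 sensitive cells with 11 UMIs, 4 of which also carried Il17a, and in 0 resistant cells. Its level over all T cells was at least 3.89-fold higher in the sensitive library, taking 3 counts as the limit that a count of 0 allows over the resistant T cells. That bound takes the 11 sensitive UMIs as exact and is not a 95% limit. Of the 5 cells, 2 were in the γδ gate, 2 among the remaining T cells and 1 in the CD4 gate. Il22, the barrier cytokine often made by the same lymphocytes, had 0 UMIs in all 5 libraries. A count of 0 allows Il22-positive cells of up to 0.0870% of the 3448 sensitive and 0.0971% of the 3091 resistant cells of the T cell libraries.

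Il23r, the receptor chain that confers the response to IL-23, was found in 16 kept cells with 19 UMIs in the sensitive T cell library and in 2 cells with 2 UMIs in the resistant one. Over all kept cells its level was 8.88 times higher in the sensitive library, with an interval from 2.14 to 78.6. The resistant value rests on 2 UMIs. Of the resistant barcodes with Il17a that were removed over the mitochondrial limit, 2 carried Il23r, and this ratio was not recomputed without that limit. In 14 of the 16 cells there was 1 UMI and the maximum was 3, so the gene was close to the detection limit of these libraries. Of the 16, 8 were in the γδ gate (8 of 99 cells, 8.08%), 6 among the remaining T cells and 2 in no gate. Trdv4 or Tcrg-V6 was found in 13 of them and Il17a in 5.

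The program of IL-17-producing lymphocytes, described by 11 genes, was higher over the T cells of the sensitive library. All 11 genes could be compared, 8 were at least 2-fold higher and 0 were 2-fold lower, with a median ratio of 2.95 against 1.11 for all genes, of which 6.66% were past 2-fold in either direction. Sox13, a transcription factor of the γδ lineage, was 21.7 times higher (5.65 to 186), Blk 9.16 (lower bound 4.89), Cd163l1 7.82 (5.82 to 10.7) and Zbtb16, which encodes PLZF, 5.30 (2.75 to 11.2). Maf (3.71), Ccr6 (2.95), Il2ra (2.68) and Icos (2.65) were past 2-fold too, of which Il2ra and Icos are activation receptors of T cells in general. Ccr6 had 0 UMIs in the cells with Il17a and in the T cells with Trdv4 or Tcrg-V6, and 15 of its 25 sensitive UMIs lay in the remaining T cells.

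Part of this list also differed within T cell gates. In the γδ gate, whose share of chain-bearing cells differed as given above, 10 genes could be compared and 6 were at least 2-fold higher in the sensitive library, with a median of 2.56 against 1.11 for all genes, of which 17.8% were past 2-fold in either direction; Sox13 had 31 UMIs in 22 of 99 sensitive cells and 0 in 21 resistant cells. Icos was 6.10 times higher there (2.74 to 16.9) and Blk 4.49 (1.68 to 16.9), whereas the interval of Zbtb16 (0.768 to 26.7) includes a ratio of 1. In the CD8 gate 6 genes could be compared and 3 were past 2-fold, Maf (3.87, 2.96 to 5.11), Icos (2.55, 2.37 to 2.76) and Rora (2.01, 1.75 to 2.32), where 4.44% of all genes were. The CD4 gate had 1 of 6, Il2ra (6.22, 3.44 to 12.6), where 17.2% of all genes were past 2-fold, and the remaining T cells had 1 of 9, again Il2ra (2.72, 2.16 to 3.45), where 7.31% were.

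Il23a was found in cells other than T cells. In cancer cells of the T cell libraries, 71 of 125 resistant cells (56.8%, 47.6 to 65.6) held 195 UMIs and 59 of 99 sensitive cells (59.6%, 49.3 to 69.3) held 153. The level was 72.4 CPM in the resistant and 63.6 CPM in the sensitive library, a ratio of 0.879 (0.706 to 1.09) that includes no difference. In neutrophils, 20 of 165 resistant cells (12.1%) and 17 of 139 sensitive cells (12.2%) carried Il23a, at 113 and 120 CPM (ratio 1.07, 0.693 to 1.63). In whole-tumor neutrophils, whose libraries were processed separately, Il23a was found in 2 of 228 sensitive, 3 of 133 resistant and 4 of 309 control cells at 7.79, 9.90 and 25.6 CPM, and 1 cell held 13 of the 16 control UMIs. In the T cell libraries, the 10% of neutrophils with the highest counts carried 92.6% of the UMIs in the resistant and 92.7% in the sensitive gate. These shares follow largely from detection, since 12.1% and 12.2% of the cells had any Il23a UMI.

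T cells, fibroblasts and dendritic cells gave little or no Il23a. It was found in 3 of 1791 resistant and 2 of 1905 sensitive T cells at 1 UMI each, in 0 of 570 and 2 of 793 fibroblasts, in 0 of 33 and 0 of 18 dendritic cells, and in 1 of 144 and 2 of 174 macrophages or monocytes. Il12b, whose product joins that of Il23a to make IL-23, was counted in dendritic cells, with 47 UMIs in 6 of 33 resistant and 43 UMIs in 3 of 18 sensitive cells. Among the other ligands listed, Ebi3, a chain shared by IL-27 and IL-35, was 3.64 times higher over the sensitive T cells (2.72 to 4.94; 6.66% of all genes were past 2-fold). Within gates it was at 2.01 in CD4 (0.932 to 5.16), 1.14 in CD8 (0.662 to 1.95) and 2.49 in the remaining T cells (1.51 to 4.31), and CD4 cells were 10.2% of sensitive and 2.85% of resistant T cells. In addition, Il27 was 3.10 times higher in sensitive macrophages or monocytes (1.30 to 8.49). Of Il17b, Il17c, Il17d, Il25 and Il12a, Il17d alone reached 20 UMIs in a named gate, with a ratio of 0.942 in fibroblasts.

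**Figure D2:**
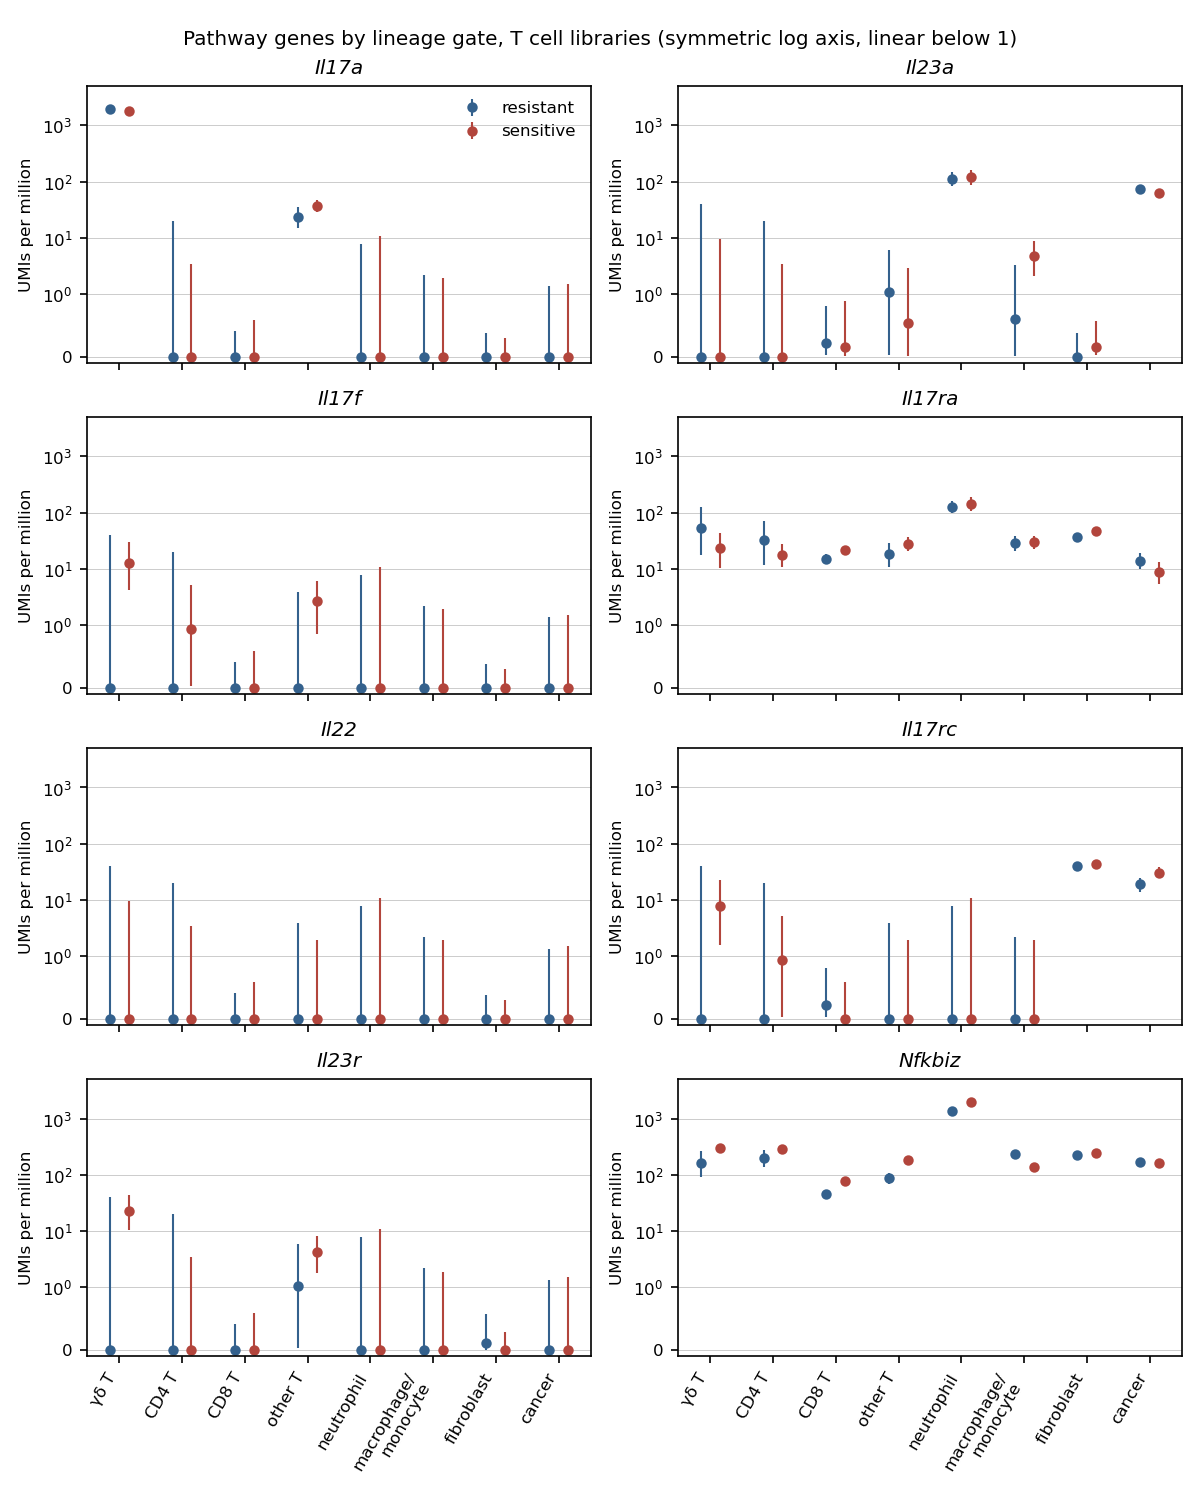
Level of each of the 8 genes in the lineage gates of the resistant (blue) and sensitive (red) T cell library, in CPM on a symmetric log axis that is linear below 1, with 95% Poisson intervals. Il17a lies in the γδ and other T gates, Il23a in the neutrophil and cancer gates and Il17rc in the fibroblast and cancer gates, whereas Il17ra and Nfkbiz are present in all 8 gates and Il22 is at 0.

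Il17ra, the receptor chain shared by the IL-17 family, was broadly detected. Neutrophils were highest, with 128 CPM (97.6 to 164) in the resistant and 144 CPM (106 to 190) in the sensitive library. Fibroblasts followed with 37.0 (33.3 to 41.1) and 47.7 CPM (44.0 to 51.7). Macrophages or monocytes had 28.6 (21.1 to 37.9) and 30.0 CPM (22.8 to 38.8), and CD8 T cells 15.3 (12.8 to 18.1) and 21.9 CPM (18.4 to 25.9). Cancer cells had 14.1 (9.98 to 19.4) and 8.73 CPM (5.40 to 13.3). The fibroblast and macrophage intervals overlap in the resistant library and do not in the sensitive one. The γδ gate (54.2 and 23.0 CPM), the CD4 gate (32.3 and 17.7 CPM) and the remaining T cells (18.3 and 28.0 CPM) rested on 5 to 53 UMIs each and took different places in the order of the 2 libraries, and dendritic cells held 0 UMIs in 33 and 18 cells.

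The share of cells with an Il17ra UMI gave another order, with fibroblasts at 43.9% and 47.0%, neutrophils at 27.9% and 25.2% and CD8 T cells at 8.50% and 9.30%. Fibroblasts gave many more UMIs per cell than neutrophils, with medians of 13718 and 13026 against 2410 and 2178 UMIs. With every cell thinned to 1000 UMIs, the shares were 15.2% and 12.9% in neutrophils, 5.10% and 5.88% in fibroblasts and 1.17% and 2.60% in CD8 T cells, which is the order of the CPM values. Most cells with Il17ra held 1 UMI, with a maximum of 6 in fibroblasts and 4 in neutrophils.

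Between the T cell libraries Il17ra was higher in sensitive fibroblasts (ratio 1.29, 1.13 to 1.47) and sensitive CD8 T cells (1.44, 1.12 to 1.83), both below 2-fold. In CD8 T cells the same number of UMIs, 137, was counted in both libraries, in 119 of 1279 sensitive and 131 of 1542 resistant cells, and the shares of positive cells have overlapping intervals. The intervals for neutrophils (1.13, 0.758 to 1.67), macrophages or monocytes (1.05, 0.704 to 1.57), CD4 T cells (0.550, 0.211 to 1.68), remaining T cells (1.54, 0.875 to 2.83) and cancer cells (0.619, 0.345 to 1.08) include a ratio of 1. The genes whose levels across the 19 gates were most like that of Il17ra were Tmem38b (r = 0.915), Foxo3 (0.911), Lgals8 (0.907), Casp4 (0.884) and Ddx6 (0.868).

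Il17rc, the chain that completes the receptor for IL-17A and IL-17F, was found in fibroblasts and cancer cells. Fibroblasts carried it in 247 of 570 resistant cells (43.3%, 39.2 to 47.5) and 334 of 793 sensitive cells (42.1%, 38.7 to 45.6), at 40.4 and 42.9 CPM (ratio 1.06, 0.930 to 1.21). Cancer cells carried it in 41 of 125 (32.8%, 24.7 to 41.8) and 40 of 99 (40.4%, 30.7 to 50.7), at 18.9 and 30.7 CPM, a ratio of 1.62 (1.12 to 2.37). The shares in cancer cells overlap in their intervals, and the sensitive cells with a UMI held 1.85 UMIs on average against 1.24.

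Neutrophils, which had the highest Il17ra, held 0 Il17rc UMIs in 165 resistant and 139 sensitive cells, which allows a share of up to 1.82% and 2.16% of cells with a UMI. Macrophages or monocytes held 0 in 144 and 174 cells, and T cells held 2 UMIs in 1791 and 4 in 1905 cells, 3 of these 4 in the γδ gate. The limit that 3 counts set in neutrophils was 6.27 and 8.81 CPM, below the 40.4 and 42.9 CPM of fibroblasts.

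Both chains were found in the same cell in 110 of 570 resistant fibroblasts (19.3%, 16.1 to 22.8) and 172 of 793 sensitive fibroblasts (21.7%, 18.9 to 24.7). In cancer cells both were found in 14 of 125 (11.2%, 6.26 to 18.1) and 8 of 99 (8.08%, 3.55 to 15.3). The CD8 gate held 2 such cells in the resistant and 0 in the sensitive library, and no other named gate held any.

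**Figure D3:**
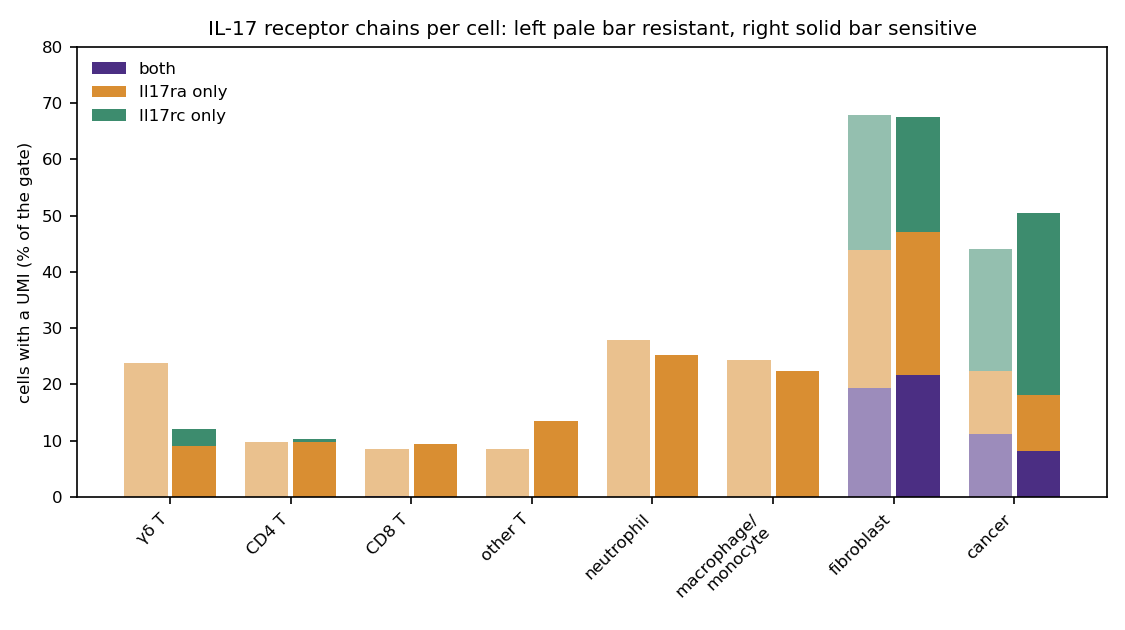
Share of cells in each gate (% of cells) with a UMI of both receptor chains, of Il17ra only or of Il17rc only, stacked, with the resistant T cell library as the left pale bar and the sensitive one as the right solid bar. Fibroblasts and cancer cells hold Il17rc, and neutrophils and macrophages or monocytes hold Il17ra only; the bars are not corrected for the deeper sequencing of fibroblasts and cancer cells.

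Of the 10 further receptors listed, 7 could be compared over all T cells and 2 were past 2-fold (6.66% of all genes), both higher in the sensitive library: Il1r1, the receptor for IL-1, which acts with IL-23 on IL-17-producing cells (5.15, 2.25 to 13.8), and Il17re, the second chain of the IL-17C receptor (3.61, 1.28 to 12.5). Il12rb1, the partner of Il23r, was at 81.9 against 32.5 CPM in the γδ gate, from 32 and 3 UMIs, with an interval of the ratio from 0.788 to 12.9. Il17rb, the receptor chain for IL-25, was 0.197 times the resistant level among the remaining T cells (0.0626 to 0.537), from 6 and 15 UMIs. Of the 13 adaptors and regulators, 13 could be compared over T cells and 1 was past 2-fold (again beside 6.66%), Nfkbia, the gene of IκBα (2.16, 2.08 to 2.24). In the γδ gate it was Nfkbia (3.63, 2.67 to 5.04) and Tnfaip3, the deubiquitinase A20 (2.21, 1.52 to 3.31), of 5 compared, where 17.8% of all genes were past 2-fold. Outside T cells, 1 of 13 adaptors and regulators in fibroblasts (beside 5.83% of all genes), 1 of 12 in macrophages or monocytes (5.46%) and 2 of 12 in cancer cells (4.93%) were past 2-fold. Zc3h12a, which encodes the RNase Regnase-1, was 2.55 times higher in sensitive fibroblasts (1.99 to 3.30) and Jak2, the kinase of the IL-23 receptor, 2.45 times higher in sensitive macrophages or monocytes (1.70 to 3.61), where Maf was past 2-fold too (2.34, 1.92 to 2.86). In cancer cells Cebpd, a C/EBP factor, was higher (4.11, 2.29 to 7.83), with 50.9% of the sensitive UMIs in 1 cell, and Map3k7, the kinase TAK1, was lower (0.469, 0.254 to 0.830).

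Nfkbiz was highest in neutrophils, at 1376 CPM in the resistant and 1988 CPM in the sensitive T cell library, with a UMI in 77.0% and 81.3% of cells. Next came 5 gates between 140 and 294 CPM in both libraries: fibroblasts (221 and 244 CPM), macrophages or monocytes (231 and 140), CD4 T cells (199 and 284), γδ T cells (163 and 294) and cancer cells (171 and 159). In the resistant library the intervals of fibroblasts (212 to 231) and macrophages or monocytes (208 to 255) overlap, and so do those of γδ T cells (91.1 to 268) and CD4 T cells (140 to 274). CD8 T cells (46.0 and 77.3 CPM) were below all 5 in both libraries, and the remaining T cells (88.1 and 187 CPM) were below them in the resistant but above macrophages or monocytes and cancer cells in the sensitive library. Genes most like Nfkbiz across the 19 gates were Ifrd1 (r = 0.939), Nfkbia (0.913), Xbp1 (0.909), Junb (0.905) and Map1lc3b (0.901).

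Between the T cell libraries Nfkbiz was higher in the T cells and neutrophils of sensitive tumors and lower in their macrophages or monocytes. The ratio was 1.44 in neutrophils (1.30 to 1.61), where 9.30% of all genes were past 2-fold, 1.68 in CD8 T cells (1.47 to 1.92), 2.12 in the remaining T cells (1.66 to 2.73), 1.43 in CD4 T cells (1.01 to 2.06) and 1.81 in γδ T cells (1.05 to 3.34). The last 2 intervals include the median ratio of all genes in their gates, 1.04 and 1.11. The γδ value turned to 0.937 when each cell counted equally. In macrophages or monocytes it was 0.606 (0.517 to 0.710), from 387 UMIs in 88 of 144 resistant cells (61.1%) and 270 UMIs in 62 of 174 sensitive cells (35.6%), where 5.46% of all genes were past 2-fold. Fibroblasts (1.10, 1.04 to 1.17) and cancer cells (0.928, 0.809 to 1.07) were close to 1, and the fibroblast interval includes the all-gene median of 1.06.

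Other values also differed between the libraries. The immediate-early genes Fos and Jun, which respond to cell dissociation, were at 0.546 and 0.533 of the resistant level in macrophages or monocytes, at 3.03 and 2.10 in γδ T cells, at 3.58 and 2.39 in CD4 T cells, at 1.34 and 1.13 in CD8 T cells and at 3.66 and 1.44 in the remaining T cells. They were at 1.18 and 0.793 in neutrophils, at 1.20 and 1.21 in fibroblasts and at 0.835 and 1.07 in cancer cells. The macrophage gate held 10 neutrophil markers at a sum of 630 CPM in the resistant and 440 CPM in the sensitive library, 3 of them at 0 in each, with Mmp9 the highest. Among macrophages or monocytes with at least 2 of the C1q genes, markers of mature macrophages, the Nfkbiz ratio was 0.694 (123 resistant and 158 sensitive cells), and among those with fewer it was 0.300 (21 and 16 cells). In CD8 T cells the neutrophil markers summed to 65.8 and 98.9 CPM, with Mxd1 the highest. Unlike that sum, S100a8 (5.24 and 1.28 CPM) and S100a9 (9.14 and 2.72 CPM) were lower in the sensitive library. The fibroblast markers summed to 25.4 and 67.2 CPM there. The part of all these values in the Nfkbiz ratios was not tested.

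**Figure D4:**
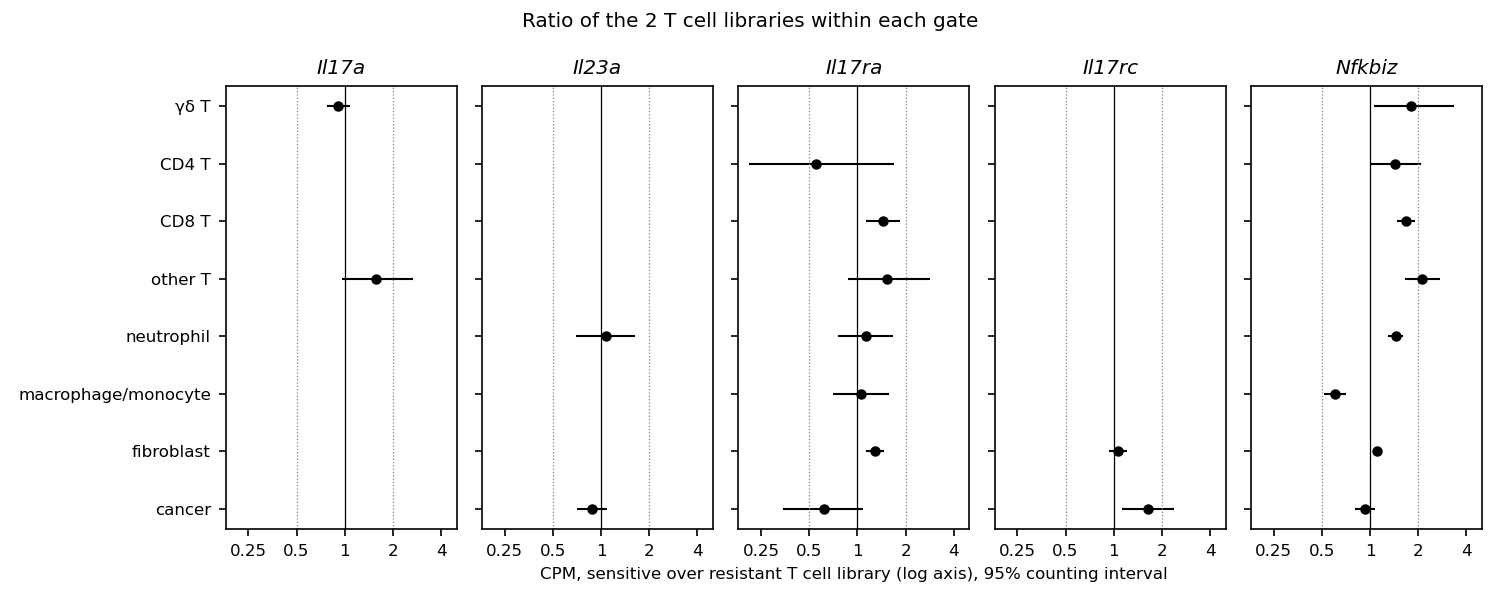
Ratio of CPM, sensitive over resistant T cell library, for the 5 genes with at least 20 UMIs over both libraries in a gate (log axis, 95% counting intervals, solid line at 1, dotted lines at 0.5 and 2). Nfkbiz lies at 1.10 or above in the 4 T cell gates, neutrophils and fibroblasts and at 0.606 in macrophages or monocytes; Il23a and Il17rc lie near 1 except for Il17rc in cancer cells at 1.62.

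The listed targets of IL-17 receptor signaling were compared in fibroblasts and cancer cells, which held both receptor chains, and in neutrophils, macrophages or monocytes and T cells, in which Il17rc was at or near 0. In fibroblasts 19 of the 20 targets could be compared, 7 were at least 2-fold higher and 2 were 2-fold lower in the sensitive library, with a median ratio of 1.43 against 1.06 for all genes, of which 5.83% were past 2-fold. Cxcl5, a neutrophil chemokine, was at 133 against 26.0 CPM (5.11, 4.47 to 5.86), and was detected in 18.2% of the sensitive fibroblasts (144) against 6.84% of the resistant ones (39). Cxcl2 was 2.29 times higher (2.07 to 2.53) with the same share of positive cells, 13.5% and 13.3%. Mmp9, a gelatinase, was 3.95 times higher (3.29 to 4.77) in 48 and 18 cells. The other 4 rested on few cells: the collagenase gene Mmp13 (1640 against 21 UMIs) was found in 28 sensitive cells, of which 1 held 43.4% of the UMIs, and Cxcl3, Csf2 and Csf3 in 12, 5 and 15. S100a9 (0.229) and Il1b (0.0603), which neutrophils express, were the 2 that were lower. Markers of other cells moved too in this gate: the 10 cancer cell markers summed to 16.7 CPM in the resistant and 32.5 CPM in the sensitive fibroblasts, with 1 and 2 at 0, and the 10 neutrophil markers to 44.7 and 90.1 CPM, with 1 and 3 at 0. Mmp9 is one of the latter and gave 57.3 of the 90.1 CPM. Their part in these ratios was not tested.

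In cancer cells 10 targets could be compared and 3 were past 2-fold (4.93% of all genes), all higher in the sensitive library: Cxcl5 (9.28, 4.23 to 24.1), Csf3, the gene of G-CSF (2.96, 2.29 to 3.85), and Mmp13 (3.41, 2.42 to 4.89), in which 1 cell held 50.4% of the sensitive UMIs. In neutrophils Cxcl1 was higher (3.55, 2.72 to 4.67) and Lcn2, the gene of lipocalin 2, lower (0.273, 0.239 to 0.310) of 11 compared (9.30% of all genes were past 2-fold); 1 cell held 35.9% of the resistant Lcn2 UMIs. In macrophages or monocytes Il6 was higher (7.01, 3.93 to 13.6), from 18 and 9 cells, and Mmp9 lower (0.312, 0.265 to 0.366), from 12 and 10 cells, of 12 compared (5.46% of all genes). Over T cells 4 targets were higher in the sensitive library and 6 lower of 13 compared (6.66% of all genes). The 4 were Csf2, the gene of GM-CSF, which T cells make themselves (113 against 43.5 CPM, ratio 2.60, 2.33 to 2.91, but 0.214 in the CD4 gate, where 1 of 5 positive cells held 76.9% of the resistant UMIs, and 0.464 without the highest cell of each library), Ccl2 (11.8), Ccl7 (3.12) and Il6 (39 UMIs against 0), and Ccl2 and Ccl7 were each at 16.3 CPM or less. Of the sensitive T cell UMIs 1 cell held 56.4% for Ccl2 and 79.5% for Il6, and without the highest cell of each library the Ccl2 ratio was 6.01 and Il6 had 8 UMIs against 0. The 6 were Cxcl1, Lcn2, Mmp13, S100a8, S100a9 and Il1b, at 21.2 CPM or less in either library, and most of them are abundant in neutrophils. Of these, Cxcl1 (0.209) and Mmp13 (0.177) rested on 1 resistant cell each, and without the highest cell of each library they were at 0.896 and 2.12.

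Some targets were more often detected in cells with Nfkbiz, depending on the target and the lineage. With every cell thinned to 1000 UMIs, 11 of 18 detected targets had the higher share in resistant fibroblasts with Nfkbiz than in those without, and 10 of 18 in sensitive fibroblasts, as did 41.7% and 41.3% of all detected genes. The counts were 10 of 13 and 8 of 12 in macrophages or monocytes (35.6% and 31.4% of all genes), 8 of 12 and 7 of 11 in cancer cells (32.8% and 29.4%) and 6 of 12 and 6 of 13 in neutrophils (48.7% and 55.2%). Rare genes are mostly seen in the larger set of cells, so the counts were also made over genes in at least 5% of the thinned cells, a limit chosen after seeing the data, where 46.0% to 50.5% of all genes had the higher share. They were then 5 of 6 and 6 of 8 in fibroblasts, 7 of 8 and 6 of 7 in macrophages or monocytes, 2 of 2 and 4 of 4 in cancer cells and 6 of 10 and 5 of 10 in neutrophils. In fibroblasts Cxcl1 was detected in 43.9% of resistant cells with Nfkbiz and 17.4% without, and in 48.3% and 20.2% of sensitive cells. Cxcl2 (8.77% and 2.86%, then 14.3% and 3.94%), Ccl2 (47.4% and 32.1%, then 49.7% and 28.8%) and Has1, a hyaluronan synthase gene (24.6% and 14.9%, then 26.5% and 11.0%), were likewise more often detected in the cells with Nfkbiz. Cxcl5 was not, at 1.75% and 1.98% in the resistant and 5.44% and 5.83% in the sensitive library. In macrophages or monocytes Cxcl1 was detected in 41.7% of resistant cells with Nfkbiz and 11.7% without, and in 41.2% and 6.37% of sensitive cells, from 24 and 17 cells with Nfkbiz. On these few cells Mmp13 and Ccl7 went opposite ways in the 2 libraries: Mmp13 was the more often detected with Nfkbiz in the resistant library (16.7% of those cells) and was at 0% with and 10.2% without it in the sensitive library, and Ccl7 was the less often detected with Nfkbiz in the resistant and the more often in the sensitive library (29.4% and 20.4%). In neutrophils of the T cell libraries Cxcl1 had about the same share with and without Nfkbiz (9.78% and 10.6% in the sensitive one). In whole-tumor neutrophils it was at 18.2% with and 1.41% without in the sensitive, at 9.23% and 3.13% in the control and, in the opposite direction, at 5.0% and 6.48% in the resistant library (20 and 108 cells). Each pair of shares describes the cells of 1 library.

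The whole-tumor libraries, which include the saline control, bear on the responding cells only. They held 2 T cells in the sensitive, 13 in the resistant and 49 in the control library. The order of the T cell shares, given above with the labels, differs from the paper's. Il17a, Il22 and Il23r had 0 UMIs in all 3, which for Il17a allows up to 1.12% of the 269 sensitive, 1.14% of the 263 resistant and 0.615% of the 488 control cells. Il17f had 1 UMI, in a T cell of the sensitive library.

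Neutrophils were 84.8% of the sensitive, 50.6% of the resistant and 63.3% of the control library. Il17ra was at 104 CPM (74.2 to 141) in sensitive, 109 (75.0 to 153) in resistant and 94.5 (71.9 to 122) in control neutrophils, and all pairs of intervals overlap. Il17rc was counted once in 133 resistant neutrophils and 0 times in 228 sensitive and 309 control neutrophils. Nfkbiz was at 322 CPM (268 to 384), 218 (168 to 277) and 253 (215 to 296). The sensitive level was 1.48 times the resistant (1.09 to 2.02) and 1.27 times the control (0.998 to 1.62), and the resistant level was 0.861 of the control (0.636 to 1.15). Between neutrophils of these libraries 8.76% of all genes were past 2-fold for sensitive against resistant, 14.7% for sensitive against control and 14.0% for resistant against control; of the 8 genes, Il17ra and Nfkbiz had enough UMIs to be compared there and neither was past 2-fold.

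Among the listed genes, 22 could be compared in these neutrophils. Il6ra, the receptor chain for IL-6, was at 38.9 CPM in sensitive, 49.5 in resistant and 19.2 in control neutrophils, from 15, 15 and 12 UMIs, so that the sensitive ratio to the control (2.03, 0.886 to 4.74) includes 1 and the resistant ratio (2.58, 1.13 to 6.03) does not. Zc3h12a was 2.15 times the control level in sensitive neutrophils (1.65 to 2.80). Of 11 targets, Cxcl1 was above the control in both treated libraries (2.29, 1.63 to 3.23, in sensitive and 2.16 in resistant neutrophils, with an interval above 1), and Lcn2 was below it in the sensitive one (0.451, 0.408 to 0.497, and 0.290 without the highest cells). Ccl2, a monocyte chemokine, was at 122 CPM in sensitive, 413 in resistant and 89.7 in control neutrophils, a ratio of 4.60 (3.33 to 6.43) for resistant against control and of 0.296 (0.207 to 0.417) for sensitive against resistant. Both treated libraries share the 1 control library.

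Cancer cells could be compared between the resistant (39 cells) and control (26 cells) whole tumors, since the sensitive library held 1. Il23a was found in 16 (41.0%) and 8 (30.8%) of them, at 52.1 and 34.6 CPM, with an interval of the ratio from 0.811 to 2.94. Il17rc was found in 7 and 6 cells (0.694, 0.275 to 1.79), Il17ra in 8 and 7, and both chains in 3 of each. Nfkbiz was found in 30 and 21 cells, at 291 and 268 CPM (1.09, 0.864 to 1.37). Of all genes, 10.8% were past 2-fold in this comparison, and the intervals of Il23a, Il17rc and Nfkbiz include a ratio of 1. Of the listed genes, 1 of 1 receptors compared, 1 of 7 adaptors and regulators, 1 of 1 producer genes and 4 of 13 targets were past 2-fold. Higher in the resistant cancer cells were Il6ra (5.79, 1.41 to 51.1), Cebpd (3.86, 1.14 to 20.3), Ahr, the aryl hydrocarbon receptor (2.44, 1.16 to 5.75), and Mmp13 (7.98, 3.26 to 25.4), of which Il6ra, Cebpd, Ahr and Mmp13 had 2, 3, 9 and 5 UMIs in the control cells. Cxcl5 (0.305, 0.126 to 0.688), S100a8 (0.478, 0.408 to 0.560) and S100a9 (0.403, 0.336 to 0.484) were lower. S100a8 and S100a9 are neutrophil transcripts, and the 10 neutrophil markers summed to 764 CPM in the resistant and 1657 CPM in the control cancer gate. Of the 10, 2 and 3 were at 0, among them Retnlg, which the whole-tumor matrices lack. The part of the neutrophil markers in these ratios was not tested. Without the 1 control cell that held it, Il6ra had 0 control UMIs.

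The macrophage or monocyte gate held 32 resistant and 10 control cells. Nfkbiz was past 2-fold there (2.25, 0.701 to 11.5), from 30 and 3 UMIs, with an interval that includes 1, where 19.4% of all genes were past 2-fold. Of 9 targets, Cxcl1 (4.62, 1.20 to 39.4) and Ccl7 (2.59, 1.83 to 3.78) were higher in the resistant and S100a8 (0.426, 0.293 to 0.625) was lower. The neutrophil markers summed to 1110 CPM in the resistant and 1894 CPM in the control gate. Of these, 4 of 10 were at 0 in each, among them Retnlg, which the matrices lack. The part of the neutrophil markers was not tested. In the control gate 1 cell held all 3 Nfkbiz UMIs and 71.4% of the Ccl7 UMIs, and without the highest cells the Ccl7 ratio was 7.67. Il17ra had 6 and 3 UMIs and Il23a 1 and 0.

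**Figure D5:**
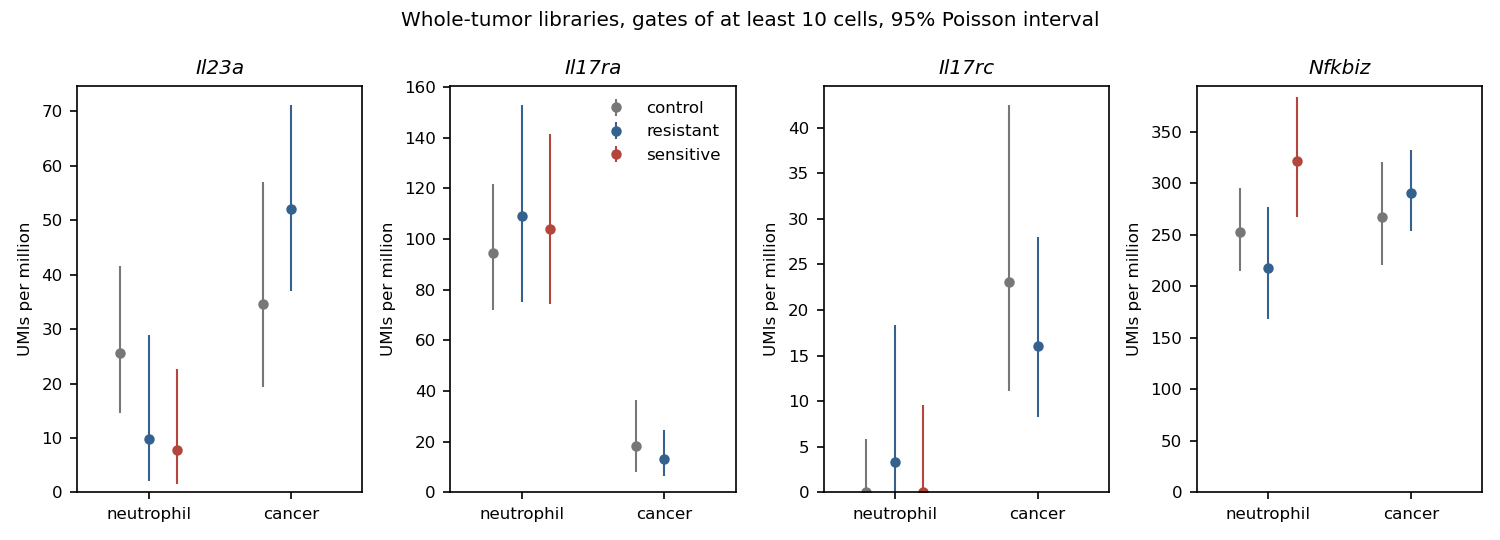
Level of Il23a, Il17ra, Il17rc and Nfkbiz in neutrophils and cancer cells of the whole-tumor libraries (CPM, 95% Poisson intervals), for control (grey), resistant (blue) and sensitive (red) tumors, in gates of at least 10 cells. Il17ra is higher in neutrophils and Il17rc and Il23a in cancer cells, and Nfkbiz in neutrophils lies at 322 CPM in the sensitive against 218 in the resistant library.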

How the data were processed

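The 5 libraries were made with the Chromium Single-cell 3′ kit v3. Per the labels, the authors aligned the reads to mm10 and counted UMIs per gene and barcode with Cell Ranger, version 6.0.0 in the submitters' processing notes for the T cell libraries and 3.0.1 for the whole-tumor libraries. The deposited matrices hold these raw UMI counts, unnormalized; the whole-tumor matrices hold 0 UMIs for all 37 mitochondrial features and lack Retnlg, so their cells could not be filtered on mitochondrial RNA, and the 2 kinds of library were not set against each other. Per-sample columns left unused numbered 0.

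Barcodes of the T cell libraries entered when 500 or more genes were detected and mitochondrial UMIs did not exceed 10%, and those of the whole tumors when 200 or more genes were detected. Putative doublets were removed from the T cell libraries with Scrublet in scanpy 1.11.5, at an expected 0.8% per 1000 barcodes. No doublets were removed from the whole-tumor libraries. Kept cells went to the lineage with most of its 10 markers detected, with at least 3 detected and the runner-up at no more than 0.5 of that number. T cells also needed a Cd3d, Cd3e or Cd3g UMI. γδ T cells needed a Trdc UMI and more UMIs of Trdc and Tcrg-C1, Tcrg-C2 and Tcrg-C4 than of Trac, and the rest were split by Cd4 against Cd8a or Cd8b1. This scoring rule was written after the files had been seen. A share of 7.89% of the resistant, 8.96% of the sensitive and 11.9% to 16.4% of the whole-tumor cells stayed in no gate.

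UMIs were summed per gate and library and given per 1000000 (CPM). Intervals are 95% Poisson for sums, Clopper-Pearson for shares, conditional binomial for CPM ratios and log-scale for ratios of shares; PCR and capture add error that they leave out. Ratios were computed for genes with at least 20 UMIs over both libraries, and a count of 0 was bounded at 3 counts over the gate. The same code was tested on simulated data before use. Calculations used Python 3.11.15, numpy 2.4.6, scipy 1.17.1 and pandas 2.3.3, and figures matplotlib 3.10.9. No test between groups was run because each group is 1 library; p-values are absent for this reason.

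The 8 pathway genes, the lists and the marker genes were chosen with earlier results of these data known. All 8 were measured in every gate, and gates of fewer than 10 cells in either library (NK and endothelial cells among them) were not described. A gene of the lists is not reported here, and the counts leave it out. The promoter motif was chosen after the sequences had been seen. Genes of the pathway lists were named where the CPM ratio reached 2-fold over all T cells or in a gate of responding cells (of the T cell subsets, targets are given over all T cells only, Csf2 excepted), and the 5 genes most like Il17a, Il17ra and Nfkbiz were taken by Pearson r of log2(CPM + 10) over gates of at least 10 cells, among genes with at least 100 UMIs. Alternatives were other cell filters, no doublet removal, 2 gate markers, thinning to 1000 UMIs, 2 UMIs for a positive cell, scaling by the median ratio, equal weight per cell and leaving out the highest cell.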

Additional observations from a re-analysis of the deposited data

Results flagged for a closer look

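Nfkbiz ratios between the T cell libraries lay on both sides of 1 in different lineages. The sensitive level over the resistant level was 1.81 in γδ T cells, 1.43 in CD4 T cells, 1.68 in CD8 T cells, 2.12 in the remaining T cells, 1.44 in neutrophils and 1.10 in fibroblasts, and it was 0.606 in macrophages or monocytes. Each of these intervals excludes a ratio of 1, but those of γδ T cells, CD4 T cells and fibroblasts include the median ratio of all genes in their gate, and with 1 library per group the difference between lineages was not tested.

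Barcodes with Il17a were found outside the cells analysed: the cell filters removed 6 of them from the T cell library of resistant tumors, with 74 Il17a UMIs in all, beside the 3 that were kept. In the sensitive library they removed 1, with 3 UMIs, beside 29 kept.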

How the results depend on the processing

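Of 55 values of the 8 genes recomputed under 248 alternatives, 182 stayed within their counting interval, 65 moved beyond it and 1 changed direction. Of the 65, 43 were shares of cells with a UMI, which fall by construction when cells are thinned to 1000 UMIs or 2 UMIs are asked for. The ratio of Il17a-positive shares of T cells (7.52) ranged from 4.92 to 8.67. The ratio of Il17a CPM over T cells (4.01) was 4.97 without the mitochondrial limit, 3.18 with at least 1000 genes, 3.34 with equal weight per cell and 29.0 without the cell with most Il17a in each library, since 1 cell holds 89.1% of the resistant UMIs. The γδ gate's share of Il17a UMIs in the sensitive library (79.8%) was 86.8% when γδ cells were taken by Trdc, Trdv4 or Tcrg-V6, and in the resistant library (89.1%) it was 97.5% by that rule and 69.5% without the mitochondrial limit. That rule and the split of macrophages by C1q genes were chosen after seeing the data. The Nfkbiz ratio in macrophages or monocytes (0.606) was 0.512 with equal weight per cell and 0.300 among cells with fewer than 2 C1q genes; the cause was not tested. The Nfkbiz ratio in γδ T cells (1.81) reversed to 0.937 with equal weight per cell, from 7 positive cells of 21 in the resistant library. The other 23 ratios were recomputed under 139 alternatives, of which 125 stayed within the interval, 13 moved and 1, the reversal just given, changed direction. For 77 ratios of listed genes past 2-fold, leaving out the cell with most UMIs in each library, chosen after seeing the data, kept 73 past 2-fold in the same direction; Cxcl1 over T cells moved from 0.209 to 0.896 and Mmp13 there reversed from 0.177 to 2.12, since 1 resistant cell held 78.7% and 94.4% of the UMIs, and in whole-tumor neutrophils Il6ra (sensitive over control) and Cxcl1 (resistant over control) fell to 1.92 and 1.76. Past 2-fold but moved by over 1.5 times were Mmp9 (7.41), Csf3 (6.85), Mmp13 (355) and Il1b (0.254) in fibroblasts, Mmp9 (0.174) in macrophages or monocytes, Cebpd (2.51) and Mmp13 (2.26) in cancer cells, Blk (7.97) and Zbtb16 (5.32) in γδ T cells, Csf2 (0.464) in CD4 T cells, Sox13 (40.3) and Ccr6 (4.68) over T cells, and Ahr (3.85) in whole-tumor cancer cells, beside those given with their values above. No paired analysis was possible because each group is 1 library. The depth limits genes such as Il23r, Il17f and Il17rc in T cells, which were counted at 1 UMI in most positive cells, and the whole-tumor libraries, whose T cells are too few for Il17a.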
